A study of Mus musculus with 50 samples.

Results

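Gene expression in the whole lung was compared between IL-13 mice that were Stat6-/- and carried the mark Epi+ (5 arrays, called Epi+ below) and IL-13 mice that were Stat6-/- without that mark (5 arrays, called null). These 10 arrays were chosen by their titles, out of 50 in the series. A further 5 arrays of IL-13 Stat6+/- lung (called Stat6+/-) entered the same fit, so that all groups shared an estimate of the spread, and they are given side by side. Every animal in the 3 groups therefore carried IL-13, and the null and Epi+ groups also shared the Stat6-/- genotype. No source used here gives age, strain, sex or the way IL-13 was delivered. In published mouse lines of these names, IL-13 and the restored Stat6 are both transgenes driven by the promoter of the club cell secretory protein, so that Epi+ animals have Stat6 in airway epithelium only. The labels give the marks and not these constructs. No group of Epi+ or null lungs without IL-13 is among the samples, so a difference that the genotypes have at rest cannot be told apart from a difference in the response to IL-13.

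IL-13 is a cytokine of allergic airway disease. It binds a receptor made of Il4ra and Il13ra1, and Janus kinases on that receptor phosphorylate Stat6, which dimerises, enters the nucleus and binds palindromic DNA sites. In airway epithelium this pathway is known for turning club cells into mucus-producing goblet cells. In macrophages it is known for alternative activation, with induction of arginase, chitinase-like proteins and chemokines. The question the groups address is which of the lung's changes Stat6 in epithelium goes with when all other cells lack it.

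Each value is a log2 ratio of lung RNA to a reference pool, centred on the median of its array. A value of 0 thus means the same ratio as the median spot, and levels of different genes cannot be ranked. The sources do not state which channel is the numerator. Sample over reference was taken as likely, because Il13 itself read high in all 3 groups of IL-13 lung. Whether the arrays of a group stand for different animals is not stated, and the spread behind the p-values is that between arrays and may be technical. Between 15719 and 18458 of 19152 spots had a value. Reference pool 3 was used for 3 Epi+ and 2 null arrays and pool 4 for the others, and the pool was a block in every fit. The standard deviation of the log2 ratios ran from 0.82 to 1.46 on Epi+ arrays and from 0.72 to 1.28 on null arrays.

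Null replicates 1 and 2 stood apart from the other null arrays in sex-linked genes. The Y-linked gene Uty read -3.66 and -4.35 on them and between -0.61 and 0.38 on the other 3 null arrays. Xist, the RNA that coats the inactive X chromosome, read 7.35 on replicate 1 and had no value on replicate 2. The main results are therefore also given without these 2 arrays.

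Both genes that define the model were first read in every array. Il13 read 4.90, 5.44, 6.34, 5.80 and 5.22 on Epi+ replicates 1, 2, 3, 4 and 6, and 4.96, 5.79, 4.65, 5.32 and 5.19 on null replicates 1, 2, 4, 5 and 6, the order used throughout. The groups overlapped, and the difference was 0.46 ± 0.36 (standard error of the fit, SE; adjusted p = 0.983). Stat6 read -0.29, -0.13, -0.41, 0.40 and -1.50 on the Epi+ arrays. On the null arrays it read -0.92, -0.42, -0.58, -0.64 and -0.82, within the Epi+ range. The Stat6 difference was 0.20 ± 0.29 with a 95% interval of -0.42 to 0.81. No source used here places this probe relative to the deleted part of Stat6, so it does not check the labels. The receptor genes Il13ra1 (-0.37 ± 0.38) and Il13ra2 (-0.72 ± 0.80) did not pass the test (both adjusted p = 0.983).

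Of 16096 probes tested, 12 were called at an adjusted p under 0.05 (0.0746%), all 12 were higher in Epi+ than in null lung (again 0.0746% of probes, counting that direction alone), and 0 were lower. At an unadjusted p under 0.05 there were 672 probes. The 12 genes were Clca1, Slc26a4, Itln1, Nadsyn1, Agr2, Chia1, Corin, Atp2a1, Muc5b, Tff2, Reg3g and Kcnj15. The differences ran from 94.2-fold for Clca1 to 2.96-fold for Kcnj15, while the median difference over all probes was -0.04 on the log2 scale with a median SE of 0.35. In all 12 genes the 5 Epi+ arrays lay above the 5 null arrays. Over the 11359 probes with a value on all 10 arrays, 31 had every Epi+ array above every null array (0.273%) and 37 had every Epi+ array below (0.326%). In whole lung RNA, more cells of a type and more RNA per cell cannot be told apart.

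**Figure D1:**
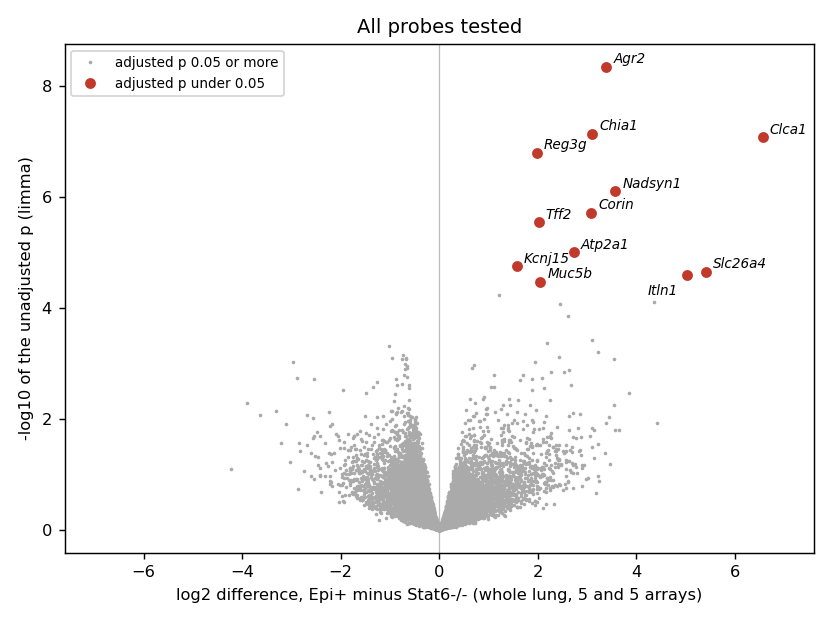
Log2 difference between Epi+ and null whole lung (x axis) against -log10 of the unadjusted limma p (y axis) for the 16096 probes tested. The 12 called genes, in red, all lie to the right of 0, and no probe on the left reaches the height of the lowest of them.

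Without null replicates 1 and 2, Agr2, Clca1, Chia1 and Reg3g were still called. The other 8 genes kept differences of 1.56 to 5.71 but had adjusted p-values between 0.0684 and 0.463. With the 2 arrays marked by a covariate, 6 of the 12 genes were called. Leaving out 1 of 15 arrays at a time, 7 genes (Agr2, Chia1, Clca1, Corin, Nadsyn1, Reg3g and Tff2) were called in all 15 fits. The count fell to 7 without Epi+ replicate 6, without null replicate 2 or without null replicate 4. Without the reference block 9 of the 12 genes were called, and Kcnj15, Reg3g and Tff2 were not. For the values as deposited 6 were called, and Reg3g and Tff2 were again not among them.

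**Figure D2:**
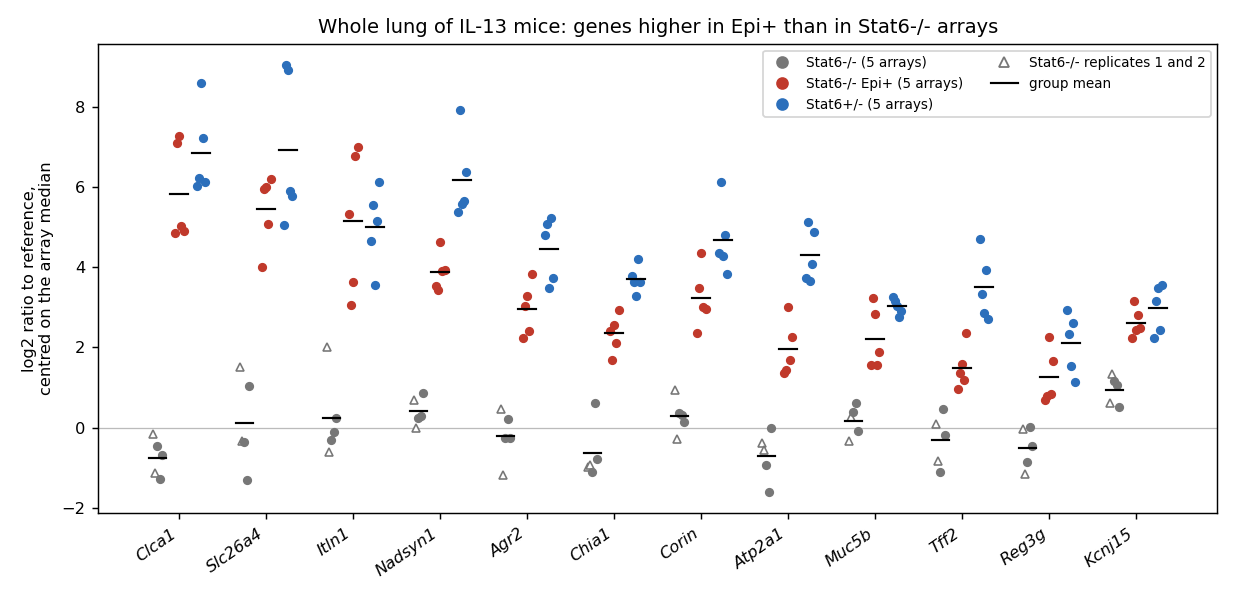
Centred log2 ratio to the reference (y axis) of the 12 called genes in each whole lung array, grey for null, red for Epi+, blue for Stat6+/-, open triangles for null replicates 1 and 2 and black bars for group means. In each gene the 5 Epi+ arrays lie above the 5 null arrays, and Clca1 has the widest gap.

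Genes of mucus-producing cells made up the largest group. Clca1, a secreted metalloprotease of goblet cells and a classical IL-13 response gene, read 4.84, 7.10, 7.27, 5.03 and 4.91 on the Epi+ arrays. On the null arrays it read -0.17, -1.14, -0.47, -1.29 and -0.69, so every null array lay below the array median and every Epi+ array far above it. The difference was 6.56 ± 0.62 (adjusted p = 0.000449), and it was 6.46 within reference pool 3 and 6.80 within pool 4. Within either pool alone, 0 probes of the array were called. The 2 spots of Clca1 gave 6.19 and 6.97 as differences of group means.

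Agr2, a disulphide isomerase of the endoplasmic reticulum needed to fold mucins, had the smallest p of the comparison. It read 2.23, 3.04, 3.27, 2.41 and 3.84 on the Epi+ arrays. The null arrays read 0.46, -1.19, -0.27, 0.22 and -0.27, and their highest value stood well under the lowest Epi+ value. The difference was 3.38 ± 0.25, or 10.4-fold (adjusted p = 7.37e-05). Within the pools it was 3.29 and 3.42.

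Muc5b, a gel-forming mucin of airway secretions, read 1.57, 3.22, 2.84, 1.56 and 1.88 on the Epi+ arrays. It read -0.34, 0.26, 0.38, 0.61 and -0.08 on the null arrays. The groups did not overlap and differed by 2.05 ± 0.33 (adjusted p = 0.0458), which was the largest adjusted p among the called genes. Tff2, a trefoil peptide secreted together with mucins, read 0.96, 1.36, 1.59, 1.19 and 2.35 against 0.09, -0.84, -1.11, 0.45 and -0.18. Its groups were separate but closer than those of Agr2, and the difference was 2.01 ± 0.26 (adjusted p = 0.00663). Itln1, a secreted lectin of goblet cells that binds microbial glycans, read 5.33, 3.06, 3.62, 6.78 and 7.00 on the Epi+ arrays. On the null arrays it read 2.01, -0.61, -0.31, -0.12 and 0.24, with replicate 1 the highest. The difference was 5.03 ± 0.80 (adjusted p = 0.0375), and Itln1 varied more among the Epi+ arrays (SD 1.79, n = 5) than any other called gene.

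Membrane transporters and channels were also among the called genes. Slc26a4, or pendrin, an apical anion exchanger that carries chloride, iodide and bicarbonate, read 4.01, 5.95, 6.00, 5.08 and 6.19 on the Epi+ arrays. It read 1.52, -0.34, -0.36, -1.30 and 1.03 on the null arrays, of which replicates 1 and 6 were the highest. The difference was 5.41 ± 0.85, or 42.6-fold with a 95% interval of 12.0 to 151-fold (adjusted p = 0.0361). Kcnj15, an inwardly rectifying potassium channel, read 2.22, 3.15, 2.44, 2.80 and 2.48 against 0.61, 1.33, 1.16, 1.05 and 0.52. All 10 values lay above the array median, with the Epi+ arrays higher by 1.57 ± 0.24 (adjusted p = 0.0318). Of 21 tested genes listed for ion and fluid transport, 2 were called higher (Slc26a4 and Atp2a1) and 0 lower. The chloride channel Cftr (0.18 ± 0.21) and the calcium-activated chloride channel Ano1 (0.24 ± 0.20) did not pass. The sodium, potassium and chloride cotransporter Slc12a2 (-0.24 ± 0.20) and the sodium channel subunit Scnn1b (-0.39 ± 0.30) did not pass either. The list's median was -0.13, beside -0.04 over all probes.

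Chia1, the acidic mammalian chitinase, which cleaves the chitin of fungi, mites and worms, read 2.42, 1.69, 2.57, 2.11 and 2.94 on the Epi+ arrays. It read -0.99, -0.93, -1.10, 0.62 and -0.78 on the null arrays. Null replicate 5 stood apart from the other null arrays and was still below every Epi+ array. The difference was 3.10 ± 0.29, or 8.56-fold (adjusted p = 0.000449). Reg3g, a secreted lectin that kills Gram-positive bacteria, read 0.70, 0.79, 2.26, 0.84 and 1.66 on the Epi+ arrays against -0.04, -1.17, -0.86, 0.02 and -0.45 on the null arrays. The gap between the groups was small, and the fit that took out the reference pool gave 1.97 ± 0.20 (adjusted p = 0.000652). The difference was 1.79 within pool 3 and 2.12 within pool 4. Of 18 tested genes listed for host defence and the acute phase, Reg3g was the only one called, and the list's median was 0.31.

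Corin, a membrane-bound serine protease best known for activating atrial natriuretic peptide in the heart, was the only called member among 24 tested genes for proteases and their inhibitors. It read 2.36, 3.48, 4.36, 3.00 and 2.96 on the Epi+ arrays and 0.94, -0.28, 0.35, 0.32 and 0.13 on the null arrays. The groups were separate and differed by 3.09 ± 0.38 (adjusted p = 0.00514). Of 18 tested genes listed for smooth, skeletal and cardiac muscle 0 were called, beside 0.0746% of all probes. Tnni3, the cardiac troponin I, was at 0.91 ± 0.34 (adjusted p = 0.983).

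The remaining called genes were Nadsyn1, which makes NAD from its acid precursor, and Atp2a1, the calcium pump of fast skeletal muscle. Nadsyn1 read 3.53, 3.42, 4.63, 3.90 and 3.93 on the Epi+ arrays and 0.69, 0.00, 0.24, 0.29 and 0.86 on the null arrays. Its difference was 3.56 ± 0.41 (adjusted p = 0.00257). Atp2a1 read 1.36, 1.43, 3.00, 1.68 and 2.26 against -0.39, -0.56, -0.93, -1.60 and -0.02, a difference of 2.73 ± 0.39 (adjusted p = 0.0201). Among the muscle genes, none of which was called, the skeletal actin Acta1 was at -0.60 ± 0.52 and the muscle creatine kinase Ckm at 0.12.

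These 2 genes lie next to each other in the platform's row order, directly after Retnla. Retnla (row 18115), Nadsyn1 (row 18116), Atp2a1 (row 18117), Flvcr1 (row 18118) and 2610008E11Rik (row 18119) differed by 4.36, 3.56, 2.73, 0.88 and 0.42 between Epi+ and null lung, in falling order. The differences of Flvcr1 and 2610008E11Rik did not pass (SE 0.633 and 0.335, adjusted p = 0.983 for both). Of the tested rows around the 5, Gstt4 before was at -0.52, and Cers4 and Hebp2 after were at 0.07 and 0.83. In Stat6+/- against null lung the same 5 rows differed by 4.92, 5.76, 4.99, 3.05 and 1.31, Cers4 by 0.21 and Hebp2 by 3.39. Between Epi+ and null in tracheal perfusate, described below, the 5 rows differed by 1.82, 2.56, 2.60, 1.01 and 0.635. Next to the spots of the other called genes, the 19 neighbouring rows that were tested ran from -1.26 to 0.83 between Epi+ and null lung. Slide positions and the printing order of the spots were not at hand, and the part of the row order in the values of Nadsyn1 and Atp2a1 was not tested.

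**Figure D3:**
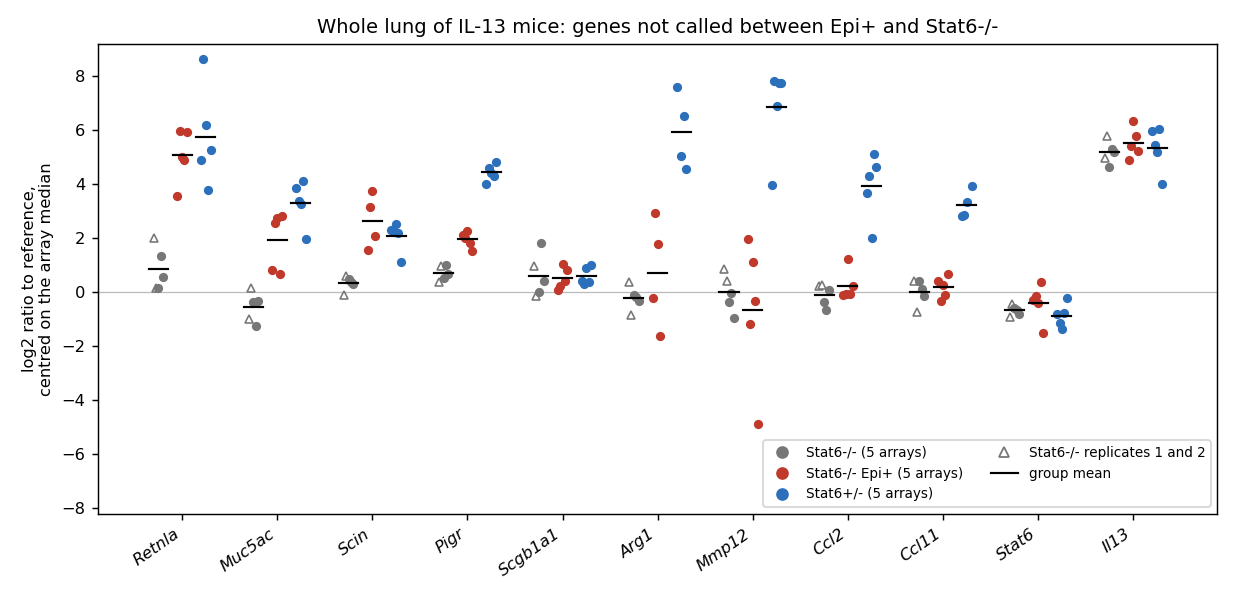
Centred log2 ratio to the reference (y axis) for 11 genes that were not called between Epi+ and null lung, with symbols as in the plot of the called genes. Retnla, Muc5ac, Scin and Pigr have Epi+ arrays that all lie above the null arrays. In Arg1, Mmp12, Ccl2 and Ccl11 the Stat6+/- arrays lie above those of the other groups.

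Several known IL-13 response genes had separate groups without passing the test. Retnla, a secreted cysteine-rich protein made by airway epithelium and alternatively activated macrophages, read 3.56, 5.99, 5.03, 4.92 and 5.93 on the Epi+ arrays. It read 2.03, 0.15, 0.14, 1.35 and 0.57 on the null arrays, and the difference was 4.36 ± 0.78 (adjusted p = 0.0912). Muc5ac, the gel-forming mucin most associated with goblet cells, read 0.82, 2.57, 2.76, 0.69 and 2.83 against -0.98, 0.15, -0.37, -1.24 and -0.33. Replicates 1 and 4 were low among the Epi+ arrays, and the difference was 2.61 ± 0.49 (adjusted p = 0.141). Pigr, the receptor that carries polymeric antibodies across epithelium, read 2.12, 2.02, 2.29, 1.82 and 1.55 against 0.38, 0.96, 0.52, 1.02 and 0.68. That difference of 1.22 ± 0.21 had an adjusted p of 0.0732. Scin, an actin-severing protein, was singled out after its values were seen. It read 1.55, 3.18, 3.73 and 2.10 on the 4 Epi+ arrays with a value and between -0.09 and 0.59 on the null arrays, with a difference of 2.44 ± 0.42 (adjusted p = 0.0934).

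Over the 16 tested genes listed for mucous cells, 6 were called higher (Agr2, Clca1, Itln1, Muc5b, Slc26a4 and Tff2) and 0 lower. The list was chosen with earlier results of these data known. Its median difference was 1.63, beside -0.04 over all 16096 probes, of which 0.0746% were called. The remaining members were not called. They included the transcription factors Foxa3 (0.34 ± 0.60) and Creb3l1 (0.18 ± 0.31), the mucin glycosyltransferase Gcnt3 (0.14 ± 0.46), the stress sensor Ern2 (0.47 ± 0.28) and Tff1 (-0.08 ± 0.94). Gp2, a membrane glycoprotein, differed by 3.65 with an SE of 1.27 and an adjusted p of 0.983. Spdef, the transcription factor of goblet cell formation, and Spink1 had too few values on the arrays of the fit and were not tested.

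Of 17 tested genes listed for club cells, whose promoter drives Stat6 in published Epi+ lines, only Reg3g was called, and the median was 0.01. The club cell secretory protein Scgb1a1 read 0.53 ± 0.41 on Epi+ arrays and 0.62 ± 0.81 on null arrays (SD, n = 5 each), a difference of -0.01 ± 0.34 with an interval of -0.73 to 0.72. On Epi+ replicates 2 and 4 and null replicates 2 and 6 it read 0.245, 0.4, -0.143 and 0.407. The medians taken off these arrays were -0.246, -0.402, 0.138 and -0.411, so these values repeat the array medians with the sign turned. Whether the Scgb1a1 spot could show a difference was not tested. Scgb3a1 differed by 0.34 ± 0.25 and Scgb3a2 by -0.44 ± 0.43. Pon1, an antioxidant esterase of club cells, was at -1.01 ± 0.22 (adjusted p = 0.415). In tracheal perfusate, with all arrays kept, Pon1 was called lower in Epi+ than in null (-0.96 ± 0.185, adjusted p = 0.0201). Of 14 tested genes for ciliated cells 0 were called, beside 0.0746% of all probes, and their regulator Foxj1 differed by -0.13 ± 0.28.

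In 22 of 27 gene lists no member was called between Epi+ and null lung. Over all probes 0.0746% were called, and at that share lists of this size would mostly hold no call. A list without a call may still hold changes. In simulated data the fit called 5.0% of planted log2 changes of 1 and 60.7% of those of 2. At 2 the simulated fits held 389 calls over 3 runs. More calls loosen the adjustment of p, so 60.7% may be too high for data with 12 calls. For alveolar type 2 cells (0 of 12 tested, median 0.09), alveolar type 1 cells (0 of 11, median -0.03), endothelial cells (0 of 17, median -0.12) and fibroblasts and matrix (0 of 17, median 0.01), the medians lay near that of all probes. Examples are the surfactant gene Sftpc (0.21 ± 0.27), the endothelial adhesion gene Pecam1 (-0.17 ± 0.19) and the collagen gene Col1a1 (0.23 ± 0.25). Sftpc read -0.292, 0.931, 0.4 and 0.266 on Epi+ replicates 1, 3, 4 and 6. The medians taken off these arrays were 0.290, -0.931, -0.402 and -0.264, so Sftpc repeated them with the sign turned, as it nearly did on the null arrays. Whether the Sftpc spot could show a difference was not tested. Interferon response (0 of 23, median -0.08), cell cycle (0 of 28, median 0.06) and eicosanoid metabolism (0 of 21, median 0.08) held no called gene either. In the list of immediate early and heat shock genes 0 of 24 were called. The chaperone Hsph1 was at -1.27 ± 0.34 and Hspd1 at -0.83 ± 0.32 (adjusted p = 0.719 and 0.983). Every Hspd1 value of Epi+ lay below every null value, but barely (highest 0.57 against lowest 0.573). Of all probes with 10 values, 0.326% separated this way.

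Immune cell lists held no called gene in Epi+ lung, beside 0.0746% called over all probes, and here too smaller changes could go uncalled. At that share lists of this size would mostly hold no call. The counts were 0 of 12 tested genes for neutrophils (median 0.29), 0 of 15 for eosinophils, basophils and mast cells (median -0.02), 0 of 19 for T and natural killer cells (median -0.09), 0 of 14 for B and plasma cells (median 0.23) and 0 of 13 for antigen presentation by MHC class II (median 0.21). Of 22 tested macrophage genes 0 were called, with a median of 0.09, and of 18 genes for alternative activation 0 were called, with a median of 0.28. Retnla, at 4.36, had the largest difference of the latter list, and the chitinase-like Chil1 that of the former, at 1.74 ± 0.56 (adjusted p = 0.983). Mmp12, the elastase of macrophages, read 1.97, -1.18, 1.13, -0.32 and -4.89 on the Epi+ arrays and between -0.96 and 0.88 on the null arrays. It read 3.99, 7.83, 6.89, 7.75 and 7.77 on the Stat6+/- arrays, all above every array of the other groups. Arg1, arginase 1, read -0.21, 2.95, 1.80 and -1.62 on the 4 Epi+ arrays with a value. Its difference from null was 1.40 ± 0.80 (adjusted p = 0.983), with an interval of -0.36 to 3.15, while the 4 Stat6+/- arrays with a value ran from 4.55 to 7.59. Ccl2, which attracts monocytes, read -0.09, -0.05, 1.24, -0.07 and 0.24 on the Epi+ arrays against -0.66 to 0.26 on null and 2.02 to 5.11 on Stat6+/- arrays. Ccl11, or eotaxin, differed by 0.18 ± 0.31 between Epi+ and null lung and read 2.84 to 3.93 on Stat6+/- arrays. Of 28 tested chemokines 0 were called in Epi+ lung.

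The distance that remained to Stat6+/- lung was measured in the same fit. Between Stat6+/- and Epi+ lung 550 of 16096 probes were called (3.42%), 386 higher and 164 lower in Stat6+/-. Between Stat6+/- and null lung 779 were called (4.84%). These comparisons share arrays with the Epi+ against null comparison, so their values are only set side by side. The number of calls and their split depended on the setting. Higher probes made up 70.2% of the 550 calls, 64.9% of 77 for the values as deposited, 82.0% of 217 after quantile normalization, 84.4% of 109 with only the 10 arrays compared, 92.3% of 13 within pool 3 and 95.1% of 61 with a replicate block (58 higher and 3 lower).

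Over all probes, 2.40% were called higher and 1.02% lower in Stat6+/- than in Epi+ lung. Of 22 macrophage genes 14 were called higher and 1 lower, with a median of 1.72 beside 0.03 over all probes. The higher ones included Gpnmb (4.62), the collagenolytic protease Ctsk (4.53), the integrin Itgax (3.19) and the lysosomal marker Cd68 (2.94 ± 0.32, adjusted p = 0.00045), while Siglecf was lower (-1.22). The same genes differed by 0.03, 0.28, -0.03, 0.18 and 0.12 between Epi+ and null lung. Of the alternative activation genes 9 of 18 were called higher, among them Mmp12 (7.70), Arg1 (4.88), Rnase2a (4.36) and Ch25h, a cholesterol hydroxylase (4.01). Of 28 chemokines 8 were called higher, with Ccl2 at 3.58, Ccl6 at 3.23 and Ccl11 at 3.06, and 2 were called lower (Ppbp and Cx3cl1). Of 24 protease genes 9 were called higher, and of 18 host defence genes 7, led by the acute phase protein Saa3 (6.62, against -0.17 between Epi+ and null).

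Genes of the secretory pathway in the endoplasmic reticulum were called higher in Stat6+/- than in Epi+ lung in 10 of 28 cases and lower in 0. The chaperone Hspa5 (1.51), the secretory transcription factor Xbp1 (1.36) and Manf (1.36) were among them. Between Epi+ and null lung the same genes were at 0.00, -0.22 and -0.10, and the list's median was -0.11. Of 17 club cell genes 3 were called lower in Stat6+/- than in Epi+ lung, Scgb3a2 (-2.76), Pon1 (-2.56) and Cckar (-1.05), and 0 higher, with a median of -0.18. Of 18 muscle genes 4 were called lower, Ckm (-1.32), Myh6 (-1.72), Myl4 (-1.73) and Tnnt2 (-1.34), while the smooth muscle genes Acta2 (-0.03) and Tagln (0.12) were not called. Of 17 endothelial genes 3 were called lower, Eng (-1.45), Kdr (-1.24) and Tek (-1.15). The part of these differences in the Stat6+/- values of other genes was not tested.

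**Figure D4:**
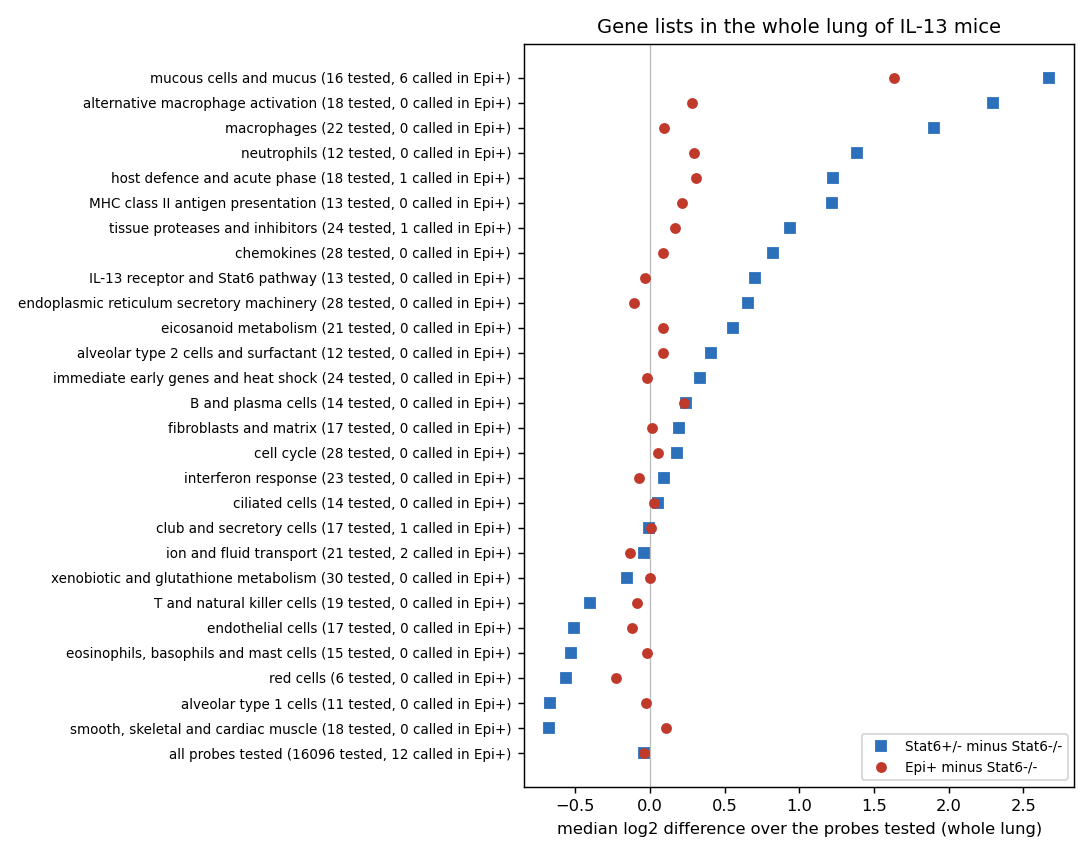
Median log2 difference over the tested members of 27 gene lists and over all probes, for Epi+ against null (red circles) and Stat6+/- against null (blue squares) in whole lung. The red circle for mucous cells stands at 1.63, while the red circles of all other lists stay between -0.23 and 0.31. The 2 comparisons share the null arrays.

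The 12 called genes were all also called higher in Stat6+/- than in null lung, where 3.23% of all probes were. Both comparisons use the same 5 null arrays, so this count is a description. In 5 of them Stat6+/- lung exceeded Epi+ lung: Atp2a1 (2.26 ± 0.40, adjusted p = 0.00831), Nadsyn1 (2.20 ± 0.41, adjusted p = 0.0122), Tff2 (1.81 ± 0.26, adjusted p = 0.00259), Agr2 (1.29 ± 0.25, adjusted p = 0.0158) and Chia1 (1.24 ± 0.29, adjusted p = 0.0342). In the other 7 no difference between Stat6+/- and Epi+ was called. For Itln1 it was -0.26 ± 0.80, for Clca1 1.03 ± 0.62, for Slc26a4 1.41 ± 0.85 and for Corin 1.30 ± 0.38 (adjusted p = 0.0837). Pigr, not called in Epi+ lung, was higher in Stat6+/- by a further 2.51 ± 0.21 (adjusted p = 5.29e-05). Il33, an epithelial alarm cytokine chosen after its values were seen, was at 1.11 ± 0.30 between Epi+ and null lung (adjusted p = 0.768) and higher by 2.26 ± 0.30 in Stat6+/- than in Epi+ lung (adjusted p = 0.00166).

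The same genotypes had also been measured in tracheal perfusate, RNA flushed from the trachea, on other arrays (5 and 5). There 82 of 16873 probes were called between Epi+ and null (0.486%), 25 higher (0.148%) and 57 lower. Of the 12 lung genes, 4 were called higher in perfusate as well. These were Clca1 (3.74, adjusted p = 3.92e-06), Atp2a1 (2.60), Nadsyn1 (2.56) and Slc26a4 (2.01). Muc5ac (2.44, adjusted p = 0.000433) and Scin (2.12, adjusted p = 0.000107) were called in perfusate and not in lung, while the difference between the tissues was 0.17 and 0.32 and was not called for either (adjusted p = 0.988 and 0.96). Tff1 was also called in perfusate (2.64, adjusted p = 0.00394) and was at -0.08 in lung, and its tissue difference of -2.71 was not called (adjusted p = 0.637). Spink1, not tested in lung, was at 2.96 (adjusted p = 0.00162). Of the 5 perfusate null arrays, 3 (replicates 10, 11 and 12) were also marked by sex-linked genes. Over the 5 arrays the Y-linked Eif2s3y ran from -3.445 to 1.278 and Uty from -2.098 to -0.086. The Y-linked Kdm5d was not low on any of them, at -0.027 to 1.009. Without the 3 marked arrays 33 probes were called, 20 higher and 13 lower. Clca1, Atp2a1, Nadsyn1, Slc26a4, Muc5ac, Scin and Spink1 were still called and Tff1 was not (adjusted p = 0.194).

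**Figure D5:**
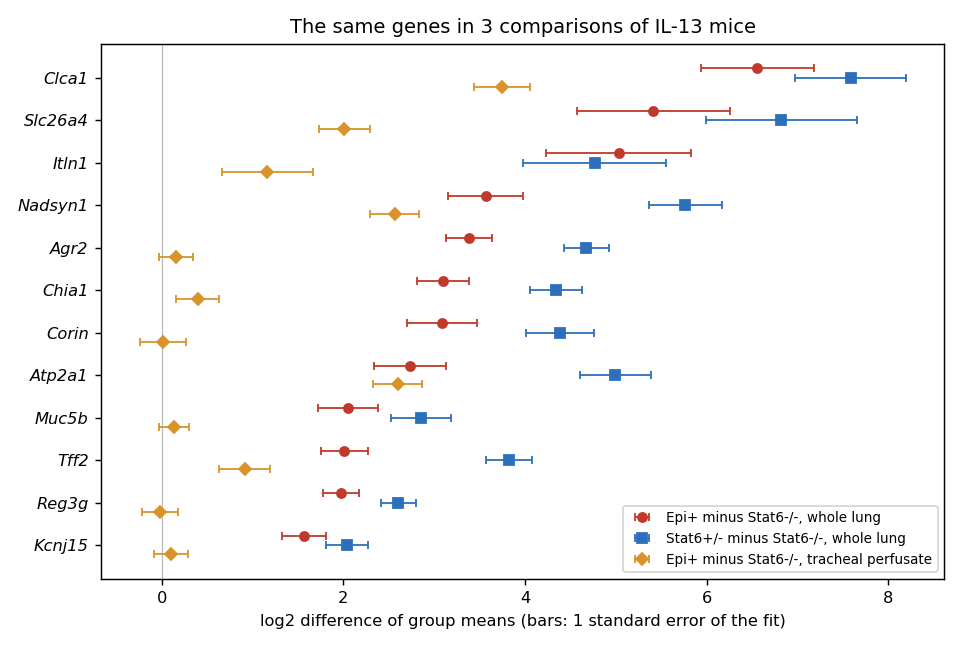
Log2 differences (x axis) of the 12 genes between Epi+ and null whole lung (red circles), Stat6+/- and null whole lung (blue squares) and Epi+ and null tracheal perfusate (orange diamonds), with bars of 1 SE of the fit. Agr2, Chia1, Corin, Muc5b, Reg3g and Kcnj15 have diamonds between -0.02 and 0.40 and red circles between 1.57 and 3.38.

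A test of the difference between the tissues, over 40 arrays, called 15 of 15370 probes (0.0976%), of which 13 had the larger Epi+ difference in lung. Of the 12 lung genes 6 were among them. Agr2 differed by 3.38 in lung and 0.16 in perfusate (adjusted p of the tissue difference = 1.84e-07), and Corin by 3.09 and 0.01 (adjusted p = 0.000516). Chia1 stood at 3.10 and 0.40, Reg3g at 1.97 and -0.02, Muc5b at 2.05 and 0.13, and Kcnj15 at 1.57 and 0.10. The lowest, median and highest Reg3g values in perfusate were 0.12, 0.275 and 0.617 (Epi+) and 0.051, 0.258 and 0.72 (null). The medians taken off those arrays were -0.114, -0.271 and -0.617, and -0.048, -0.257 and -0.720. Reg3g thus repeated the array medians with the sign turned, and Agr2 (0.121 to 0.618 and -0.041 to 0.636) lay close to them. Whether these spots could show a difference in perfusate was not tested. For Clca1, Slc26a4 and Itln1 the lung differences were larger by 2.81, 3.40 and 3.87, and these tissue differences were not called (adjusted p = 0.135, 0.19 and 0.135). Pigr (1.22 and -0.49), the glucose transporter Slc5a1 (2.52 and -0.65) and the chitinase-like Chil1 (1.74 and -1.64) were called for the tissue difference without being called in lung. The surfactant protein gene Sftpa1 (0.24 and -1.88) and the chemokine Cxcl1 (0.43 and -3.37) were called with lower values in Epi+ than in null perfusate. Per the labels, perfusate RNA was amplified and lung RNA was not, so tissue and amplification cannot be told apart. Without the marked null arrays of both tissues, 6 tissue differences were called, of which 4 were among the 15 (Agr2, Corin, Reg3g and a probe with no listed gene).

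Promoter sequences (250 bases before the start of transcription, from RefSeq, build GRCm38.p6) were read for the genes that moved together, to show the region in which Stat6 sites are looked for. A promoter was found for 9 of the 12 called genes. The motifs searched were TTCNNNNGAA, the spacing Stat6 is known to prefer, and TTCNNNGAA, the spacing of other STAT factors. Both read the same on either strand, and the window took in 50 bases after the start. Of the 9 genes 0 held the first motif, which is present in 6.95% of 32851 promoters and in 5.75% of those of genes on the array. The second motif was in 1 of the 9, Atp2a1, over its start, and in 8.30% of all promoters and 7.07% of those on the array. Retnla, not called and chosen here after its values were seen, held TTCNNNNGAA at position -145 from its start. The sequences shown are those of Agr2, which had the smallest p, of Slc26a4, which had the largest difference among the genes with a promoter, and of Retnla, with the motif in capitals.
Agr2 (chr12:35992675-35992924, plus strand): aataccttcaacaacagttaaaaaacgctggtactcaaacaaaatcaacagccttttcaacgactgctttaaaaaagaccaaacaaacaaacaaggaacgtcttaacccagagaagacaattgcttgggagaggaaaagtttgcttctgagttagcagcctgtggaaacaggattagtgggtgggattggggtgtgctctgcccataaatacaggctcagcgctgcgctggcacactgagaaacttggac
Slc26a4 (chr12:31559985-31560234, minus strand): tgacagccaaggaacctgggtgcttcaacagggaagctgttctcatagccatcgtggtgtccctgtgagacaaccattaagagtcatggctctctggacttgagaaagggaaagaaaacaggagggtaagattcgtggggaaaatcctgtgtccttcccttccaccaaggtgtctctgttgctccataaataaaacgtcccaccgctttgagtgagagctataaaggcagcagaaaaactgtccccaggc
Retnla (chr16:48842359-48842608, plus strand): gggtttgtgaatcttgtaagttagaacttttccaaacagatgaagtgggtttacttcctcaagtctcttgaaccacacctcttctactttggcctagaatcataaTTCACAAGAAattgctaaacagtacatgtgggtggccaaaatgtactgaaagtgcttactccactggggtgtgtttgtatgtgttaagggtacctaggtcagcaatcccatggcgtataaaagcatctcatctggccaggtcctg
A match in such a window describes the sequence and not a bound site. No binding was measured in these samples.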

How the data were processed

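RNA of whole lung and of tracheal perfusate was hybridised on 2-colour spotted arrays, with a reference in channel 1 and the sample in channel 2 per the labels. As deposited by the authors, the values are log2 ratios of single spots with uncentred array medians. No source used here gives the scanner, the background correction, the filtering or the direction of the ratio, and spot intensities were not used. The number of arrays limits the precision.

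Each array was centred on its median. Before centring, the group medians differed by -0.16 between Epi+ and null and by -0.21 between Stat6+/- and Epi+, and all differences are relative to that. Spots of 1 accession were averaged into 18272 probes, of which 14539 had a gene symbol from the platform annotation. Symbols were checked against a RefSeq table of GRCm38.p6. Il4ra, Chil3 and Chil4 had no probe, and probes of close paralogs such as Clca1 and Clca3b may share signal.

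Linear models were fitted with limma 3.58.1 (lmFit, eBayes) in R 4.3.3, and p-values were adjusted by Benjamini and Hochberg over all probes of a comparison. The lung fit held 15 arrays with the reference pool as a block. The fit of the tissue difference held 40 arrays, with a block for pools and preparations. Testing needed values on at least 3 arrays in each group, and the threshold for a call was an adjusted p of 0.05. Tables were made with Python 3.11.15. The fit was tested on simulated data, with changes planted in noise of the fitted spread. Of 600 planted changes at each size, over 3 runs, it called 5.0% at a log2 change of 1, 60.7% at 2 and 77.8% at 3. Each run held more changed probes than were called between Epi+ and null lung. The shares at 2 and 3 may thus be too high for these data.

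Named genes were all called genes, a fixed set of IL-13 response and cell type genes, and from each of 28 lists (27 of tissue and pathway genes and 1 of sex-linked genes) the called members or the 3 with the smallest p. The members and lists were chosen with earlier results of these data known. Replicate numbers shared by Epi+ and null arrays were checked over 4 pairs. Alternatives were other centring, scaling, quantile normalization, blocks, filters, weights, variance models and left-out arrays. The 10 whole lung arrays of ovalbumin and saline groups, on another platform, were not used here.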

Additional observations from a re-analysis of the deposited data

Results flagged for a closer look

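In Epi+ against null mice, 7 genes had a difference in whole lung that exceeded the difference in tracheal perfusate by a test of the interaction. The excess was 3.23 for Agr2, 3.08 for Corin, 2.70 for Chia1, 2.00 for Reg3g, 1.92 for Muc5b, 1.71 for Pigr and 1.46 for Kcnj15 on the log2 scale, with adjusted p-values from 1.84e-07 to 0.0298 (limma). Without the marked null arrays, or with these as a covariate, 3 of the 7 were still called (Agr2, Corin and Reg3g), and 4 for the values as deposited (Agr2, Chia1, Corin and Reg3g). Without the reference block 3 were called (Agr2, Chia1 and Corin). Amplification of the RNA differed with the tissue, and its part was not tested. Whether the Agr2 and Reg3g spots could show a difference in perfusate was not tested either.

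Single arrays stood far from the rest of their group in 3 of 66 groups of values examined. Chance gives about 1 in 20. Chia1 read 0.62 on null replicate 5, where the other null arrays were at -0.78 or lower. Ccl2 read 1.24 on Epi+ replicate 3, where the others were at 0.24 or lower. Ccl24, a chemokine for eosinophils, read -3.74 on null replicate 5, where the others were at -0.05 or higher.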

How the results depend on the processing

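None of the 12 called genes changed direction in any of 30 alternatives, and 111 of their 360 values lost the call. These genes were picked for their calls on the same arrays, with every Epi+ array above every null array. A kept direction within a pool or with arrays left out was thus largely fixed beforehand. Against 12 calls between Epi+ and null lung, the count was 6 for the values as deposited and 9 without the reference block. It was 7 with a replicate block beside the reference pool, 4 without the marked null arrays and 6 with these as a covariate. Within either reference pool it was 0, and it was 7 to 13 when arrays were left out 1 at a time. Against 550 calls between Stat6+/- and Epi+ lung, it was 77 as deposited, 208 with scaled arrays, 217 after quantile normalization, 109 with only the 10 arrays compared, 282 without the reference block, 13 within pool 3, 0 within pool 4, 61 with the replicate block, 311 with array weights, 356 without the marked null arrays, and 273 to 806 with 1 array left out. Against 15 calls for the tissue difference, it was 5 as deposited, 7 after quantile normalization, 5 with only the 20 arrays compared, 5 without the reference block, 9 for probes with a value on every array, 6 without the marked arrays and 6 with them as a covariate, and 8 to 19 with 1 array left out. Against 82 calls between Epi+ and null perfusate, it was 33 without the marked arrays, an alternative chosen after seeing the data. Fewer arrays entered the fits within a pool and with arrays left out, and the cause of the other changes was not tested. No pairing by replicate number was seen. The deviations of same-numbered arrays correlated at -0.337 to 0.055 over 4 pairs and 9897 probes, and those of all pairs at -0.337 to 0.243. With 4 pairs this check cannot exclude a pairing. Among 21 named genes that were not called, 10 changed sign in at least 1 alternative.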
